A study of Rattus norvegicus with 10 samples.

Results

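Fam111a (NCBI Gene 499322) and its neighbour Glyatl1 (NCBI Gene 309227) were followed in fetal rat hearts, 2 of the 18025 genes listed in the deposited expression table. The pair was chosen on measured values, namely the fall of both genes from control to hyperglycemic hearts and the separate levels of Fam111a among control hearts. Those values are therefore given as a description with no test, and tests are kept for genes that the choice did not use.

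Hearts were taken at embryonic day 19.5 (E19.5) from wild-type Sprague-Dawley fetuses, with 5 libraries of the control (CON) group and 5 of the hyperglycemia (HG) group. All dams, 3 months old, were mated with normoglycemic males. HG dams received streptozotocin (STZ), a poison of pancreatic beta cells, in citric acid buffer by intraperitoneal injection on 3 consecutive days, and CON dams the buffer alone, with a glucose above 16 mM at 7 days as the mark of diabetes in HG. The injections are described after mating in the design of the series, and elsewhere in the study as given before pregnancy. Stranded mRNA libraries gave values per library, called C1 to C5 and HG1 to HG5, although the study's methods speak of pooled RNA of the 10 samples. Fetal sex and litter were not given, so the p-values below measure only the spread between these samples, which may include litter mates.

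FAM111A is a serine protease of the trypsin fold that binds PCNA, the sliding clamp of the replication fork, and helps forks pass proteins that are crosslinked to DNA. It also restricts the replication of some viruses, and mutations of the human gene cause skeletal disorders with low parathyroid hormone. GLYATL1 belongs to the glycine N-acyltransferase family, mitochondrial enzymes that join acyl groups from coenzyme A to amino acids, and is known mainly from liver and kidney rather than from heart.

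The promoters of the pair are shown because the genes lie side by side and both were lower in HG. They are RefSeq sequences of the rat assembly GRCr8, from 250 bases before to 50 bases after the annotated start, 5′ to 3′ on the plus strand, at chr1:219065389-219065688 for Fam111a and chr1:219101798-219102097 for Glyatl1. The submitters' processing notes name another assembly, mRatBN7.2, for the expression values. Capitals mark matches on either strand to a CCAAT box (CCAAT), a GC box (GGGCGG) or a cell cycle homology region (TTTGAA).
Fam111a: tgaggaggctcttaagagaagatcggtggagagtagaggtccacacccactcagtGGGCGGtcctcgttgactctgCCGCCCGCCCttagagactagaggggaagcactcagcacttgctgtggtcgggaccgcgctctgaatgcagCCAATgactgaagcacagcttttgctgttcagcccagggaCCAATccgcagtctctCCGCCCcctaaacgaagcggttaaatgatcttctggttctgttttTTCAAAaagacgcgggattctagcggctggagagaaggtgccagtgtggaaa
Glyatl1: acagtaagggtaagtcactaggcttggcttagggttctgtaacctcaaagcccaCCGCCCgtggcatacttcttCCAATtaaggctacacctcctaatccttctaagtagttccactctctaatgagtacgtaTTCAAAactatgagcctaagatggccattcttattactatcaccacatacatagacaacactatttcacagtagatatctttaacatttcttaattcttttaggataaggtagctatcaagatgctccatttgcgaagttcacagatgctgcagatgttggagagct

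The Fam111a promoter held 4 GC boxes, of which a pair overlapped, 2 CCAAT boxes and 1 TTTGAA match, and the Glyatl1 promoter held 1 of each. Among 33469 rat promoters of the same length, 33.1% held a GC box, 37.5% a CCAAT box and 18.3% TTTGAA. Neither promoter held the letters TATAAA, found in 14.2% of promoters, or a form of the E2F site, found in 9.52%. The forms searched were TTGGCGC, also TTCCCGC, then TTCGCGC, and finally TTGCCGC. G and C made up 55.3% of the Fam111a promoter with 15 CG pairs, and 40.7% of the Glyatl1 promoter with 4 CG pairs, around medians of 51.7% and 7 over all promoters. These letters are a description and say nothing of which factors bind.

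Fam111a was among the more abundant messages of CON hearts and fell to the level of an ordinary gene in HG. Levels are in FPKM, reads scaled by gene length and by library size. Fam111a stood at 159.7 FPKM in C1, 336 in C2, 288 in C3, 312 in C4 and 161 in C5. It stood at 17.3 FPKM in HG1, 14.2 in HG2, 17.7 in HG3, 21.1 in HG4 and 17.6 in HG5. The groups did not overlap, and the lowest CON library was 7.56-fold above the highest HG library. Mean levels were 251 ± 84.9 FPKM for CON libraries and 17.6 ± 2.45 FPKM for HG libraries (SD, n = 5 each), a ratio of 14.3. On the log2(FPKM + 0.1) scale the difference of HG minus CON was -3.77 (SE 0.21), which ranked 2 among falls of the 14542 genes kept for comparison (mean level at or above 0.1 FPKM). By mean FPKM, Fam111a ranked 288 of all 18025 genes in CON and 4097 in HG. In whole tissue, fewer cells of a type and less RNA per cell cannot be told apart.

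**Figure D1:**
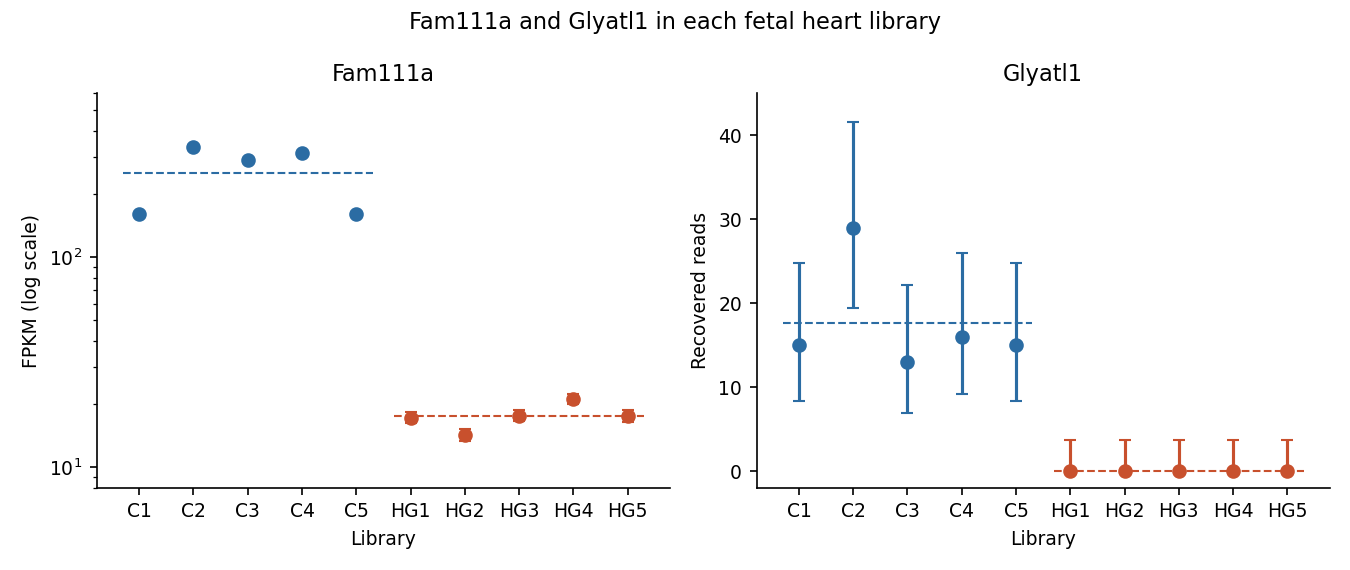
Level of Fam111a in FPKM on a log axis (left) and reads of Glyatl1 on a linear axis (right) in the 10 fetal heart libraries, with CON in blue and HG in orange. Points are libraries, bars are exact 95% Poisson intervals (hidden by the points for Fam111a in CON) and dashed lines are group means. Fam111a lies at 159.7 and 161 FPKM in C1 and C5, between 288 and 336 FPKM in C2, C3 and C4, and at 21.1 FPKM or less in HG, and Glyatl1 has 13 to 29 reads in CON and 0 in HG.

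Within CON, Fam111a took 2 levels. C1 and C5 differed by 1.006-fold from each other, the highest of C2, C3 and C4 was 1.16-fold above the lowest of them, and a gap of 1.79-fold lay between both sets. Reads recovered from the FPKM values were 10002 in C1 and 9829 in C5, against 21180 in C2, 17585 in C3 and 19650 in C4. Exact 95% Poisson intervals, which cover counting error only, ran from 157 to 164 FPKM over C1 and C5 and from 284 to 340 FPKM over the other 3 libraries. The SD of log2 level within CON was 0.53, which ranked 31 among the 6028 genes whose CON mean reached 10 FPKM, whose median SD was 0.07. HG libraries held 1142, 903, 1059, 1289 and 1015 reads of Fam111a in order and were spread over 1.49-fold with no such gap. Their SD of log2 level, 0.20, ranked 262 of 6259 genes, whose median was 0.09. The coefficient of variation was 33.8% in CON and 13.9% in HG.

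Glyatl1 was rare in CON and was not seen in HG. It was listed at 0.394 FPKM in C1, 0.756 in C2, 0.350 in C3, 0.418 in C4 and 0.403 in C5, and at 0 in all 5 HG libraries. These levels were 15, 29, 13, 16 and 15 reads, 88 in all, so that each value rests on few molecules. C2 stood above the other 4 libraries, with a 95% interval of 0.506 to 1.09 FPKM, and the difference among CON libraries was not tested. The mean was 0.464 ± 0.165 FPKM in CON (SD, n = 5). With 3 reads over the HG group taken as the upper limit that a count of 0 allows, the floor corresponds to 0.0160 FPKM. On that floor, with the CON reads taken as exact, Glyatl1 was at least 29.1-fold lower in HG. The limit was 24.5-fold when C2, with 59 reads left in CON, was not counted. These limits cover counting error in HG only, not the spread between hearts. Of the pair, only Fam111a had a mean of at least 0.1 FPKM in HG. Glyatl1 passed that filter through CON alone.

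Whether Glyatl1 shared the 2 levels of Fam111a could not be seen at its counts. For each Glyatl1 read there were 667 Fam111a reads in C1 and 655 in C5, against 1353 in C3 and 1228 in C4, while C2, with the highest values of both genes, had 730. In C1 and C5, with 159.7 and 161 FPKM of Fam111a, Glyatl1 had 15 and 15 reads. In C2, C3 and C4, with 336, 288 and 312 FPKM of Fam111a, it had 29, 13 and 16 reads. At those counts a parallel rise in Glyatl1 cannot be told apart from none.

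Close relatives were nearly silent. Glyat, the glycine N-acyltransferase next to Glyatl1, had 2 reads in C1, 1 in C2, 1 in C4 and 0 elsewhere. Glyatl2 had 2 reads in C3 and 1 in HG3. Both were under the filter and were not tested. Glyatl3 had means of 0.127 FPKM (CON) and 0.114 FPKM (HG), did not pass the test (log2 fold change -0.19, SE 0.46, limma adjusted p = 0.77) and was at 0 in some libraries of both groups. The RefSeq gene order of GRCr8 places the pseudogene Fam111a-ps1 and the gene Fam111al1 just before Fam111a, on the same strand, and a further pseudogene between Fam111a and Glyatl1. None of these has a value in the table, so how reads shared with such near copies were counted is open and the absolute level of Fam111a is uncertain to that extent.

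Fam111a was set against the genes that copy DNA, in whose company its protein works. Of all 14542 genes tested with limma, 5836 (40.1%) passed an adjusted p of 0.05, 4127 (28.4%) higher and 1709 (11.8%) lower in HG, with a median log2 fold change of 0.09. This balance depended on scaling, since 15.6% were higher and 17.5% lower with median-of-ratios factors. Of 57 replication machinery genes, 41 (71.9%) rose in HG and 1 fell. Their median log2 fold change was 0.25, with a range from -0.23 to 0.62. None moved by more than 1 on that scale in either direction. With median-of-ratios factors 21 rose and 1 fell, and the median was 0.16. While Fam111a was 14.3-fold lower in HG, the summed level of the list was 1106 to 1177 FPKM in CON and 1275 to 1428 FPKM in HG.

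**Figure D2:**
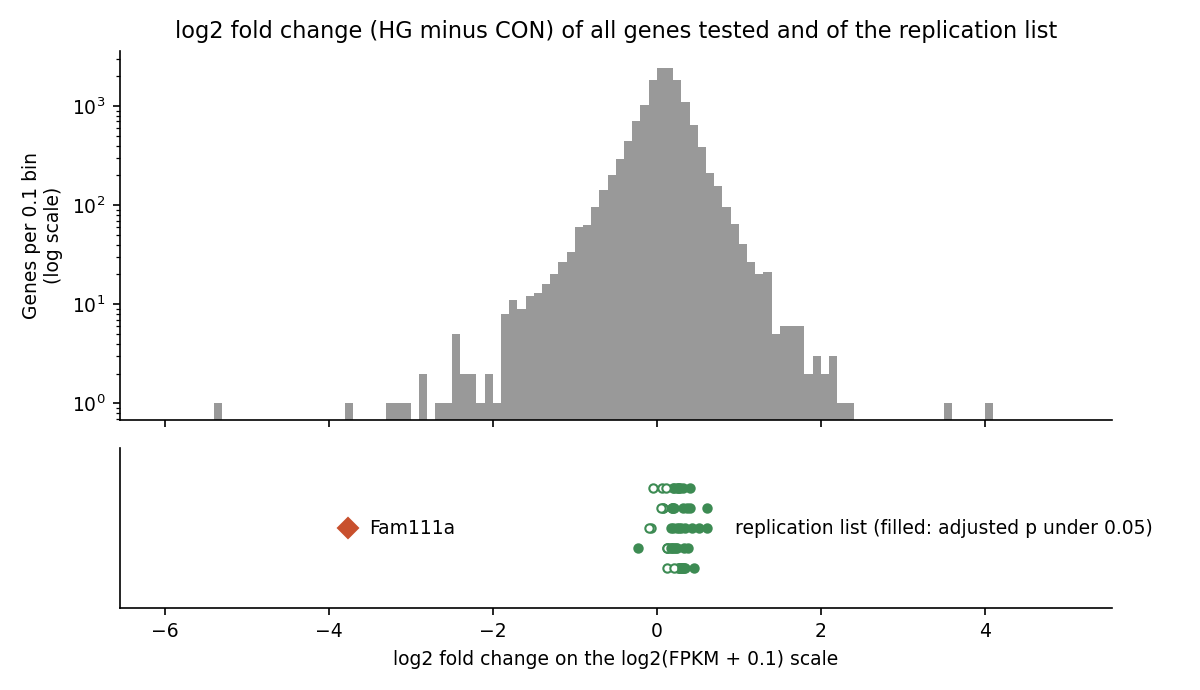
Upper panel, number of genes (log axis) by log2 fold change of HG minus CON for the 14542 genes tested; lower panel, the 57 replication machinery genes in green (filled where the limma adjusted p was under 0.05, height for separation only) and Fam111a as an orange diamond. The replication genes lie between -0.23 and 0.62 and Fam111a at -3.77.

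PCNA, the clamp to which FAM111A binds, stood at 134 FPKM in C1, 147 in C2, 131 in C3, 140.2 in C4 and 137 in C5, and at 162, 150.5, 151, 171 and 145 FPKM in HG1 to HG5. Its groups overlapped slightly, with a log2 fold change of 0.18 (SE 0.05, limma adjusted p = 0.0109), a call that was lost with median-of-ratios factors. The CON libraries lay within 1.12-fold of each other for Pcna, against 2.10-fold for Fam111a. Fam111a therefore amounted to 1.19 and 1.17 times the Pcna level in C1 and C5, 2.29, 2.20 and 2.23 times in C2, C3 and C4, and 0.0944 to 0.123 times in HG. Rfc1, the large subunit of the clamp loader, rose by 0.20 (SE 0.06, limma adjusted p = 0.0250), and lost its call with median-of-ratios factors, with quantile normalization and without C2, C3, C5 or HG4. Rfc5, a small subunit of the same loader, rose from 17.7 ± 0.696 to 27.0 ± 0.925 FPKM (log2 fold change 0.61, SE 0.04, limma adjusted p = 1.2e-06), and its groups did not overlap.

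The named subunits of the helicase that unwinds DNA ahead of the polymerases were higher in HG. Mcm7 went from 45.6 ± 2.70 to 60.5 ± 4.34 FPKM, Mcm3 from 33.0 ± 1.64 to 41.1 ± 2.29 FPKM and Mcm2 from 39.7 ± 2.36 to 46.1 ± 3.26 FPKM (SD, n = 5), with log2 fold changes of 0.41, 0.31 and 0.21. Mcm2 lost its call with median-of-ratios factors. Cdc45, which completes the active helicase, rose by 0.37, and Dbf4, the regulatory subunit of the kinase that fires origins, by 0.51. Tipin, a component of the fork protection complex, had the largest log2 rise of the list, 0.62 (SE 0.07), from 10.7 to 12.6 FPKM over CON to 15.9 to 19.4 FPKM over HG. Rpa3, of the complex that coats single-stranded DNA, rose by 0.46, and Lig1, which seals nicks on the lagging strand, by 0.27. Pole4, an accessory subunit of the leading strand polymerase, was the gene that fell, from 22.5 ± 0.809 to 19.2 ± 1.33 FPKM (log2 fold change -0.23, SE 0.05, limma adjusted p = 0.00356).

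**Figure D3:**
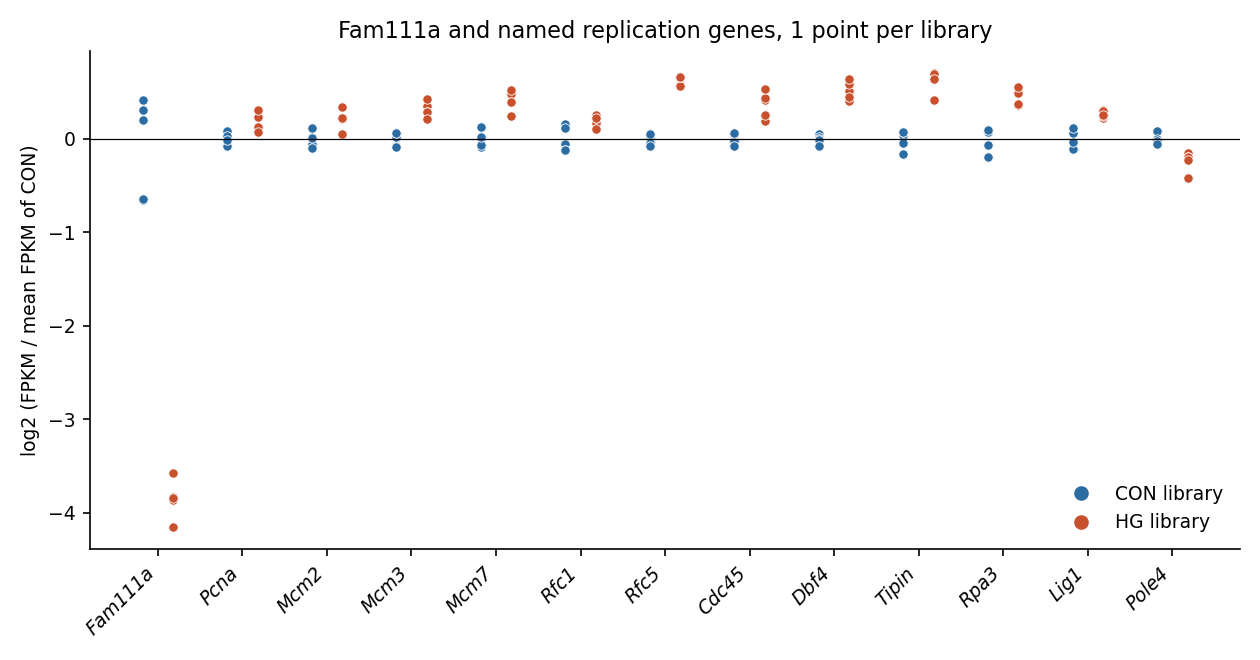
Log2 of the FPKM of each library relative to the mean of CON, for Fam111a and 12 named replication genes, with CON in blue, HG in orange and 1 point per library. Fam111a has CON points in 2 clusters and HG points between -4.14 and -3.57, whereas the points of the replication genes lie between -0.42 and 0.70.

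In level per length, Fam111a exceeded every one of the 57 replication genes in each of the 5 CON libraries. In HG between 22 and 31 of them were above it, and by group mean 28 were. The median over the replication genes was 13.4 FPKM for CON and 17.4 FPKM for HG. None of these genes was spread as widely as Fam111a in CON. Their SD of log2 level had a median of 0.10 and a highest value of 0.31, against 0.53 for Fam111a. An SD does not show whether a single gene was lower in C1 and C5, which was not tested. Summed over the list, C1 and C5 had 1114 and 1177 FPKM and C2, C3 and C4 had 1125, 1106 and 1170 FPKM.

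Genes that act on the same lesions or on PCNA moved in the direction of the replication list. Of 20 such genes, 15 (75%, against 28.4% of all genes tested) rose, 0 fell and 5 did not pass, and their median log2 fold change was 0.24. The count was 10 with median-of-ratios factors and 11 with quantile normalization, without C1 or without C2. Of all genes tested, 33.2% passed with median-of-ratios factors and 33.9% with quantile normalization. Top2a, the topoisomerase that relieves DNA tangles and can be trapped on DNA, rose by 0.44 (SE 0.05), Pclaf, a PCNA-binding factor, by 0.45 (SE 0.06) and Fanci, of the crosslink repair pathway, by 0.45 (SE 0.06). Sprtn, the other replication-coupled protease for DNA-protein crosslinks, was looked at after the values had been seen. It went from 6.68 ± 0.395 to 7.57 ± 0.496 FPKM (log2 fold change 0.18, limma adjusted p = 0.0359), a call lost with either rescaling, under the replicate block and on leaving out any of 7 single libraries. All 10 nucleotide supply genes rose (100%, against 28.4% of all genes tested), with a median of 0.30. Among them were the thymidine kinase Tk1, by 0.40, and Dtymk, the next kinase of that path, by 0.37. With median-of-ratios factors 5 of the 10 did so, where 15.6% of all genes tested did. All 10 proliferation markers rose too (100%, against 28.4% of all genes tested), with a median of 0.48. Their sums were 315 to 346 FPKM in CON and 449 to 489 FPKM in HG. Cdk1, the kinase of mitosis, was the most abundant of them and rose by 0.48.

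The table's own gene ontology terms for Fam111a were counted as well. Genes of the lists above were not taken out of these terms, so the counts are not separate from those lists. Without Fam111a, 44 of 72 tested genes (61.1%) annotated to DNA replication rose and 0 fell. Of those annotated to replication fork processing, 17 of 29 (58.6%) rose and 0 fell. Of 29 genes annotated to negative regulation of viral genome replication, 9 (31.0%) rose, near the 28.4% of all genes tested, and 5 (17.2%) fell, with a median log2 fold change of 0.14. The repair term for proteins crosslinked to DNA held 4 tested genes, of which 2 (50%) rose.

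HtrA proteases share the trypsin fold with FAM111A, and 3 of the 4 fell, where 11.8% of all genes tested did. Htra3, a secreted member, fell by 0.53 (SE 0.06), Htra4 fell by 1.03 (SE 0.24) from a CON mean of 0.325 FPKM, and Htra1, also secreted and named because the family is small, fell by 0.50, a call lost without C1, C2, C3, HG4 or HG5. Htra2, the mitochondrial member, rose by 0.30 (SE 0.04). The fall of Htra4, the largest of the 4, left it at 0.116 FPKM.

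For Glyatl1 the wider path was acyl conjugation and glycine metabolism. Apart from Glyatl1, the table listed 16 of 18 genes, of which 10 were tested. Of these 3 (30%) rose and 2 (20%) fell, where 28.4% and 11.8% of all genes tested did, so the rises were near the background. Their median log2 fold change was 0.07. Shmt1, which makes glycine from serine in the cytosol, rose by 0.33 (SE 0.08). Dld, a subunit shared by the glycine cleavage system and the pyruvate dehydrogenase complex, went from 103 ± 6.82 to 82.4 ± 4.91 FPKM (log2 fold change -0.32, limma adjusted p = 4.9e-04). Acsf2, an acyl-CoA synthetase of mitochondria, fell by 0.13 (SE 0.04). With either rescaling 3 of the 10 passed, where 33.2% (median-of-ratios factors) and 33.9% (quantile normalization) of all genes tested did.

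A fall like that of the pair was not seen in the genes around it. Of the 10 listed genes on each side in annotation order, 14 were tested, 6 (42.9%, against 28.4% of all genes tested) rose and 0 fell, with log2 fold changes from -0.07 to 0.73. Dtx4, an E3 ubiquitin ligase of the Notch pathway and the nearest listed gene before Fam111a, went from 2.13 ± 0.209 to 2.60 ± 0.182 FPKM (log2 fold change 0.28, SE 0.09, limma adjusted p = 0.0239). Beyond it, Mpeg1, a pore-forming protein of macrophages, had 0.34 (SE 0.18, limma adjusted p = 0.14), and Osbp, a sterol carrier, had -0.07 (SE 0.04, limma adjusted p = 0.25). Osbp passed as lower with either rescaling. Within CON, Mpeg1 was also lowest in C1 and C5, at 0.778 and 0.692 FPKM, against 1.36, 1.13 and 1.19 FPKM in C2, C3 and C4. Osbp was at 26.5 and 25.2 FPKM in C1 and C5 and 27.1 to 27.8 FPKM in the others. Dtx4 did not divide so, with 2.16 FPKM in C1 and 1.99 in C3. These differences within CON were not tested.

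On the other side Glyat and Glyatl2 were too low to test, and Cntf, a neurotrophic cytokine, rose by 0.36 (SE 0.13, limma adjusted p = 0.0401). Farther out, Psat1, an enzyme of serine synthesis, rose by 0.73 (SE 0.06), Cep78, a centrosomal protein, by 0.27, Gnaq, a G protein subunit, by 0.26 and the corepressor Tle4 by 0.24. Psat1 and Gnaq passed in every alternative run. Dtx4, Cntf, Tle4 and Cep78 lost their calls with either rescaling. Cntf lost it also without the filter, under the replicate block, by voom and without C2, C3, C5, HG1, HG2, HG3 or HG5, Dtx4 under the replicate block and without C3, C5, HG3 or HG5, and Tle4 without C1, C2 or HG3. Without HG3 only 3 flanking genes passed.

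**Figure D4:**
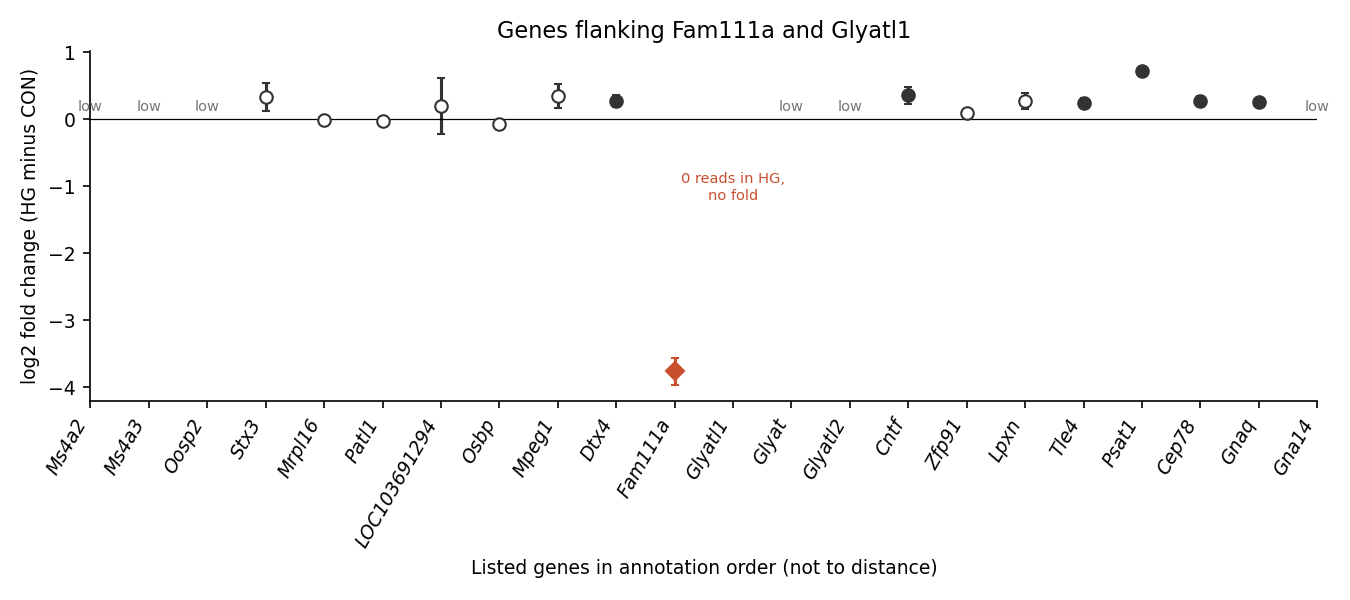
Log2 fold change of HG minus CON with its SE for the 10 listed genes on each side of Fam111a and Glyatl1 in annotation order (spacing is not distance). Filled circles had a limma adjusted p under 0.05, open circles did not, "low" marks genes under the filter, and Fam111a (diamond) is given with no test. The tested flanking genes lie between -0.07 and 0.73 and Fam111a at -3.77.

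The likeness of other genes to the pair was measured as Pearson's r, over the 10 libraries, of deviations from the group means, across 11708 genes whose mean reached 1 FPKM. The genes closest to Fam111a were Cinp (r = 0.92), Cct6a (0.90), LOC100910596 (0.89), Mturn (0.88) and Gcc1 (0.87). Cinp ran from 8.99 to 11.1 FPKM over CON and from 9.05 to 11.2 FPKM over HG. Its log2 fold change was 0.02 (limma adjusted p = 0.83). LOC100910596 had a wider CON range, from 1.88 to 3.51 FPKM. In each of the 5 genes C1 and C5 were the lowest CON libraries, as for Fam111a, to which they were picked for likeness. None of the 5 fell in HG. Closest to Glyatl1 were LOC680121 (r = 0.99), Med31 (0.97), Manea (0.96), LOC100360846 (0.93) and LOC103693101 (0.93), each with its highest CON value in C2, the library in which Glyatl1 was highest. LOC680121 stood at 6.80 FPKM in C2 and 1.19 to 1.98 FPKM in the other CON libraries. With few libraries and many genes, high values of r are found by search, and they share the depth of each library.

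Marker lists placed the samples and showed what else moved with the groups. Cardiomyocyte genes dominated in every library, Actc1 alone with 10911 ± 373 FPKM (CON) and 9821 ± 1071 FPKM (HG). The sum of the list was 26801 to 28134 FPKM in CON and 21338 to 24502 FPKM in HG. Of its 12 genes 8 (66.7%) were lower, against 11.8% of all genes tested. Sums for fibroblasts were 1724 to 2010 FPKM (CON) and 1556 to 1785 FPKM (HG), with 4 of 8 genes (50%) lower and 2 (25%) higher. For endothelium they were 254 to 280 FPKM and 263 to 289 FPKM, with 2 of 7 genes (28.6%) higher and 0 lower. Macrophage sums were 16.8 to 21.3 FPKM and 16.8 to 23.0 FPKM, with 2 of 7 genes (28.6%) higher and 2 (28.6%) lower. Macrophage log2 fold changes ran from -1.77 to 1.00. Of all genes tested, 28.4% were higher and 11.8% lower. Red cell precursor genes summed to 104 to 165 FPKM in CON and 212 to 528 FPKM in HG. Of these 8 genes 2 (25%) were higher, near the 28.4% of all genes tested, and 4 (50%) were lower, against 11.8%. The most abundant, the embryonic globin gene Hbe1, went from 47.6 ± 11.5 to 234 ± 94.7 FPKM. The part of these lists in the fall of Fam111a was not tested.

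Liver, which expresses Glyatl1, was followed by its marker genes. Their sum was 3.17 FPKM in C1, 9.77 in C2, 89.5 in C3, 8.78 in C4 and 6.16 in C5. Over HG it was 1.60 to 2.97 FPKM. Of the 10 tested genes 5 (50%) were lower in HG and 0 higher, against 11.8% and 28.4% of all genes tested. Alb, the gene of serum albumin, was the most abundant and reached 34.9 FPKM in C3. In C1 it stood at 0.0552 FPKM, below the HG mean of 0.245 FPKM. Its log2 fold change was -2.83 (SE 1.05, limma adjusted p = 0.0472). That call was lost with a pseudocount of 1 or 0.01, without the filter, with median-of-ratios factors and by voom. It was also lost on leaving out any single library but C1. Glyatl1 had 13 reads in C3, where the liver sum was highest, and 15 in C1, where it was lowest among CON. The part of liver RNA in the values of Glyatl1 was not tested. Kidney tubule genes, the other site of the family, summed to at most 0.17 FPKM in CON and 0.98 FPKM in HG. Lung epithelium genes were at or near 0, and lymphocyte genes summed to 2.78 to 3.87 FPKM in CON and 3.14 to 3.69 FPKM in HG.

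Y-linked genes summed to 38.0 to 44.4 FPKM in C1, C4, HG1 and HG3 and to at most 0.96 FPKM in the others. Of the CON libraries with a high sum, C1 had 159.7 FPKM of Fam111a and C4 had 312, and C5, with a low sum, had 161. Depth was 18115463 and 17695686 reads on listed genes in C1 and C5 and 17643990 to 18243908 in the other CON libraries. The part of fetal sex and of depth in the 2 levels was not tested.

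**Figure D5:**
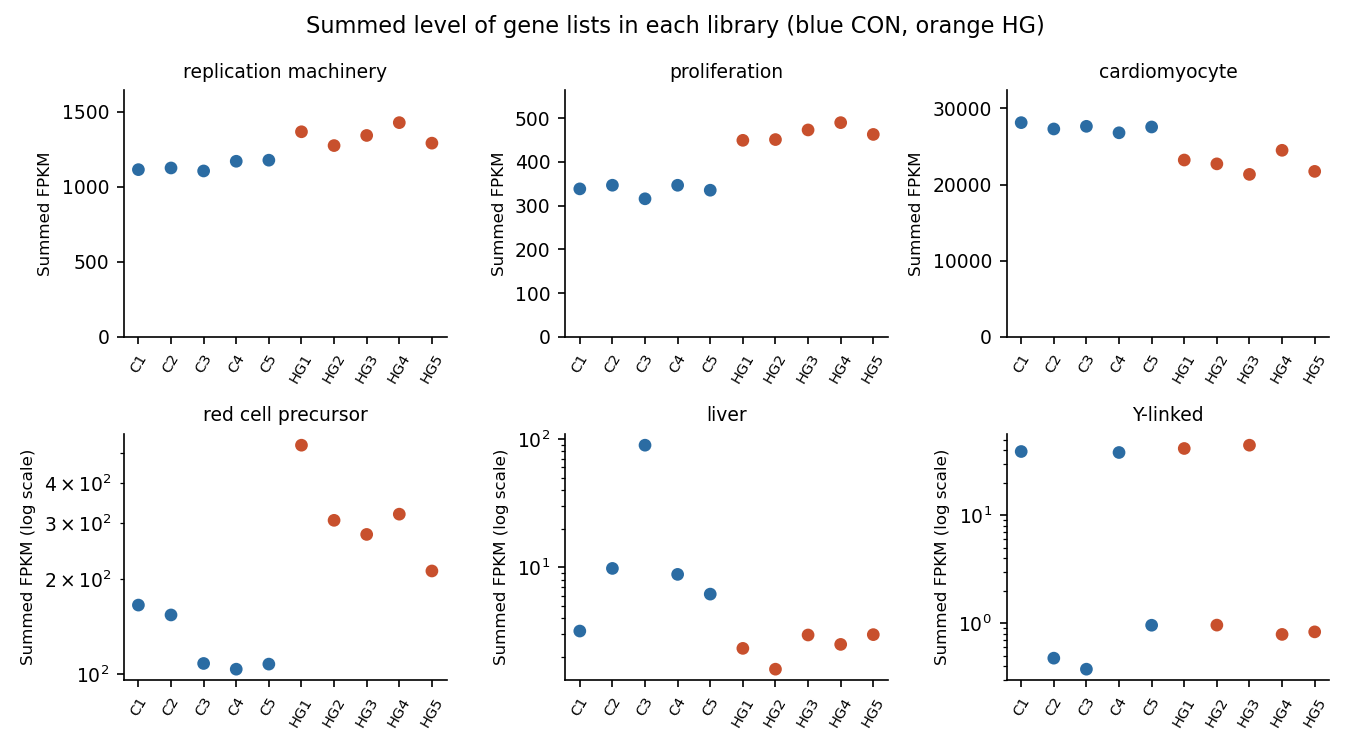
Summed FPKM of 6 gene lists in each library, with CON in blue and HG in orange, on linear axes from 0 in the upper row and log axes in the lower row. Replication and proliferation sums are higher and cardiomyocyte sums lower in every HG library, C3 stands apart for liver genes, and Y-linked genes are high in C1, C4, HG1 and HG3.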

How the data were processed

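RNA-seq of 10 fetal rat hearts (5 CON, 5 HG) was used. The authors deposited FPKM, reads divided by gene length and library size, with gene annotation. The submitters' processing notes name fastp, HISAT2, HTSeq, R 3.2.0 and assembly mRatBN7.2. Their order and the annotation release are not given in the sources used here. All per-sample columns were used (0 unused). The members and gene lists were chosen with earlier results of these data known.

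Whole reads were recovered from the steps of the FPKM values for all 18025 genes, with 99.98% of values within 0.05 reads of a whole number and 17643990 to 18243908 reads in CON libraries and 16676564 to 19114276 in HG libraries. Between 16041 and 16313 genes were above 0. Poisson intervals and the floor of 3 reads cover counting error only. In simulated tables the reads of 97.7% of 17646 genes were recovered exactly.

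For the 14542 genes whose mean reached 0.1 FPKM, log2(FPKM + 0.1) was fitted by group in limma 3.58.1 (trend on, no covariate; R 4.3.3), with Benjamini-Hochberg adjustment over all of them. The study's methods name DESeq, which needs counts and was not used. Fold changes on this scale understate changes of low genes. On simulated data for this comparison over 14542 genes, 197 of 200 changed genes were called, with 9 unchanged genes called. Python 3.11.15, numpy 2.4.6, pandas 2.3.3, scipy 1.17.1 and matplotlib 3.10.9 were used. Of the listed IDs, 17829 matched the RefSeq table of GRCr8, which was used for gene names and order. Promoters came from RefSeq with that build.

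Named by rule were the members, their family, flanking genes that passed and the nearest 3 on each side, the 8 replication genes with the smallest adjusted p plus Pcna, Rfc1 and Mcm2, up to 3 genes of each other list, the 5 genes most like each member, and the most abundant gene of each cell type list. Others were named after their values were seen. A gene that the rule names is not reported here. The fit was repeated with a pseudocount of 1 or 0.01, without the filter, with a filter at 1 FPKM, and with median-of-ratios factors, quantile normalization, the replicate number as a block, voom on recovered reads, or 1 of the 10 libraries left out.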

Additional observations from a re-analysis of the deposited data

Results flagged for a closer look

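In groups of 5 libraries, 130 sets of values were checked for a library whose gap to its nearest neighbour took more than 0.71 of the range. Chance gives such a gap in about 1 of 20 sets, and 12 were found. Glyatl1 stood at 0.756 FPKM in C2, above 0.350 to 0.418 FPKM in the other CON libraries. Med31 (25.7 FPKM), Manea (6.03 FPKM) and Scgb1a1, a lung epithelium gene (0.118 FPKM against 0), were also high in C2. Med31 and Manea had been picked for their likeness to Glyatl1, whose pattern C2 leads. In C3, Alb stood at 34.9 FPKM and the liver sum at 89.5 FPKM. Glyatl2 was at 0.0704 FPKM in C3 and 0.0358 FPKM in HG3 and at 0 in the other libraries of each group, at 2 reads and 1 read. In HG1, Mpeg1 (0.979 FPKM) and Dtx4 (2.28 FPKM), both before Fam111a in gene order, were below the other HG libraries. In HG2, Tipin (15.9 FPKM) and Pole4 (16.9 FPKM) were below the others. Fam111a itself had no such library in either group.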

How the results depend on the processing

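The log2 fold change of Fam111a lay between -3.91 and -3.64 with any 1 library left out and between -3.86 and -3.70 in the other alternatives. That of Glyatl1 depends on the pseudocount, being -0.54 with 1 FPKM, -5.51 with 0.01 FPKM and -5.11 by voom on recovered reads, and a mean of at least 1 FPKM gives it no value. Scaling moved the lists. With median-of-ratios factors 22 replication genes passed, 21 of them higher (median 0.16), with 5 nucleotide supply and 3 acyl conjugation genes. Of all genes tested, 33.2% passed with those factors and 15.6% were higher. With quantile normalization 27 replication genes (47.4%) were higher (median 0.17), and 3 acyl conjugation and 3 flanking genes passed. Of all genes tested, 33.9% passed with that scaling and 18% were higher. Flanking calls numbered 3 to 7, replication calls 37 to 44 and calls over all genes tested 5059 to 5627, with 1 library left out. Of 55 single genes followed, 39 had the same call in every alternative, and none was called in opposite directions.

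Samples sharing a replicate number did not deviate together (correlations from -0.126 to 0.108), so the numbers do not pair them. With the replicate block 41 replication genes passed, 40 higher, and 4 flanking genes passed. The 88 reads of Glyatl1 limit its precision. Reads shared with near copies of Fam111a, and litter, were not examined.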
